A study of Mus musculus with 27 samples.

Results

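The comparison described here sets the Bcl11a/b-DCKO cortex, which lacks functional Bcl11a and Bcl11b, against the Bcl11a-CKO cortex, which lacks Bcl11a alone, at embryonic day (E) 13.5. It takes 6 of the 27 libraries of the series, 3 of each genotype, chosen by their titles, and it covers all 34745 genes in the deposited count table. Both mutants are C57BL/6 mice in which Emx1-Cre, active in the progenitors of the dorsal telencephalon, recombines floxed alleles. The Bcl11a-CKO carries Emx1-Cre and Bcl11aFlox/Flox, and the Bcl11a/b-DCKO carries these and Bcl11bFlox/Flox, so the groups differ in the Bcl11b alleles and share the Cre and the Bcl11a deletion. Wild-type control cortex of the same age (3 libraries) gives the reference level. Cells that never expressed Emx1-Cre, such as vessels, microglia, interneurons that migrate in and meninges, keep both genes. The same 2 genotypes at E15.5, with 2 Bcl11a-CKO and 3 Bcl11a/b-DCKO units after summing paired libraries, are used where the E13.5 result is set beside the later age.

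Bcl11a and Bcl11b (also called Ctip1 and Ctip2) are closely related zinc-finger transcription factors that recruit chromatin repressor complexes, above all NuRD, and also act within BAF complexes. In the cortex Bcl11b is best known for its role in the axons of layer 5 subcerebral projection neurons, and it is also expressed in layer 6 corticothalamic neurons. Bcl11a is expressed in many deep- and upper-layer neurons and influences which projection neuron type a cell becomes. E13.5 lies in the period when deep-layer neurons are being born. The comparison asks what the additional loss of Bcl11b changes in a cortex that already lacks Bcl11a.

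BCL11A is known to bind the letters TGACCA in the promoter of fetal globin genes, and the promoters of 3 genes that the results turn on are therefore shown first. Scube2, Fignl2 and Cnr1 had the smallest p-values of the comparison. The sequences are the 250 bases upstream of a transcript start in RefSeq (GRCm38.p6), 5′ to 3′ on the gene's strand, with TGACCA and its reverse complement TGGTCA in capitals. Scube2 lies on the minus strand, at chr7:109865680-109865929. Fignl2 lies on the minus strand, at chr15:101054400-101054649. Cnr1 lies on the plus strand, at chr4:33924394-33924643.
Scube2: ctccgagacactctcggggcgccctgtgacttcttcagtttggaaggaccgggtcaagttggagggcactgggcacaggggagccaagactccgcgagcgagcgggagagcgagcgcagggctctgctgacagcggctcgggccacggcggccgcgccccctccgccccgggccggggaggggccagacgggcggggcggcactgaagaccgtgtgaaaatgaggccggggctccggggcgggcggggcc
Fignl2: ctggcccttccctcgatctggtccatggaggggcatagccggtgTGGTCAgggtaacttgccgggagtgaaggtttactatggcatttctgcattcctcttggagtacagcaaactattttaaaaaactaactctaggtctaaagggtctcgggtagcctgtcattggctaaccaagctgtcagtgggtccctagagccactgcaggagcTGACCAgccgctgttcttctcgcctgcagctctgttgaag
Cnr1: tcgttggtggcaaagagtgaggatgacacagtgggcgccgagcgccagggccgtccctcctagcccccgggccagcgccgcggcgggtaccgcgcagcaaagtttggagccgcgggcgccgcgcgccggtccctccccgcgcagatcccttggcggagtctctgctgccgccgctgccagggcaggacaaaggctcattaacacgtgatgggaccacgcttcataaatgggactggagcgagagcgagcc
The Fignl2 window held 2 matches, beginning 206 and 40 bases before the start, and those of Scube2 and Cnr1 held 0. Counting both strands, 9.38% of the 13506 RefSeq promoters of the genes tested held a match, and 11.4% of all 32851 promoters in the table. Of the genes that passed the test below, 3 of 41 promoters of those higher in the double mutant held one (7.32%), and 5 of 73 promoters of those lower (6.85%). Shares of matches in the genes that passed were thus no higher than in the genes tested.

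The E13.5 mutant libraries held 5309024 to 7220708 counts each. Expression is given as CPM, read counts scaled to the size of the library after TMM normalization, in the order of replicates 1, 2 and 3. A log2 fold change is the double mutant minus the single mutant, with its standard error, and a gene passed when the adjusted p of edgeR's quasi-likelihood test was under 0.05. One library stood apart. Bcl11a-CKO replicate 1 had an age score of -0.40, a difference in mean log2 CPM between the 3625 genes that rise and the 3551 that fall from E13.5 to E15.5 in the control, whereas the other Bcl11a-CKO libraries scored -0.90 and -1.06 and the double mutants -1.12 to -0.92. All E15.5 units scored 0.77 to 1.04. The same library had the highest summed level of 21 pan-neuronal genes among the Bcl11a-CKO libraries (4465 to 6974 CPM) and the lowest of 27 cell cycle genes (5233 to 8058 CPM). In the double mutants these sums were 4100 to 4916 and 6928 to 7885 CPM. Counts are therefore also given without Bcl11a-CKO replicate 1, as are the calls of named genes that passed and the fold changes of some. Xist, which is expressed from the inactive X, was above 100 CPM in 1 of 3 Bcl11a-CKO and in 2 of 3 Bcl11a/b-DCKO libraries, so sex is not balanced.

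**Figure D1:**
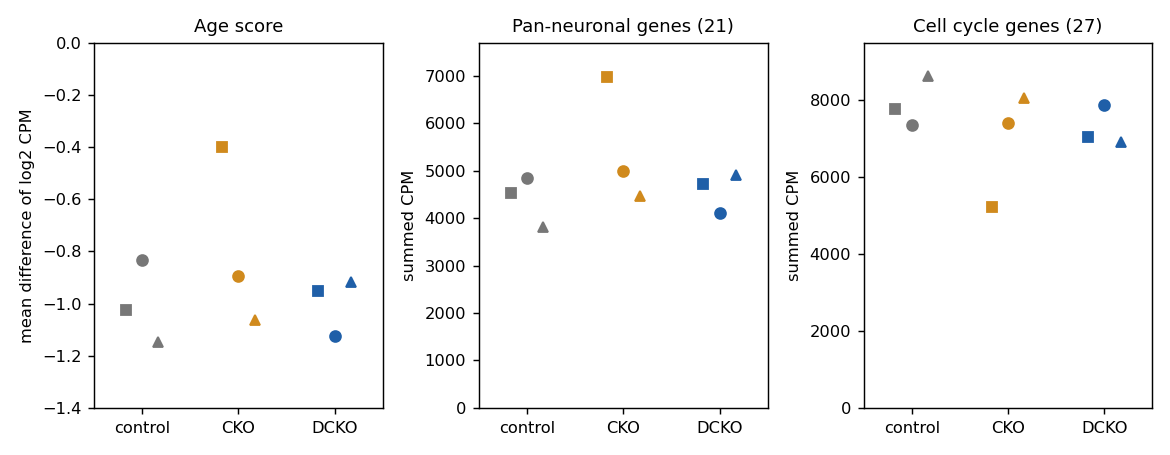
Age score (left), summed CPM of the 21 pan-neuronal genes (middle) and of the 27 cell cycle genes (right) in each E13.5 library; squares, circles and triangles are replicates 1, 2 and 3 of the control, Bcl11a-CKO (CKO) and Bcl11a/b-DCKO (DCKO). The square of the CKO stands at -0.40, 6974 CPM and 5233 CPM, away from the other 8 libraries in each panel.

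Bcl11b itself had CPM of 386, 257 and 227 in the Bcl11a-CKO and 57.6, 45.0 and 49.4 in the Bcl11a/b-DCKO, and the control libraries had 191, 328 and 149. The groups of mutants did not overlap, and the double mutant was lower by a log2 fold change of -2.52 ± 0.25 (edgeR adjusted p = 0.000348; 95% interval -3.06 to -1.98). The Bcl11b gene spans chr12:107910403-108003602. Bcl11a had CPM of 372, 325 and 261 in the Bcl11a-CKO and 281, 306 and 312 in the double mutant. These overlapped and did not pass the test (log2 fold change -0.09 ± 0.11; adjusted p = 0.828; 95% interval -0.32 to 0.14), and all 6 lay below the control (428, 525 and 509 CPM). Counts over a whole gene include exons outside the deleted part, so the residual counts of either gene do not measure functional transcript.

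Of 14947 genes tested, 109 passed (0.729%), 45 higher in the double mutant (0.301%) and 64 lower (0.428%). Among the genes that passed, 26 higher and 44 lower genes differed by a log2 fold change of at least 1. The median over all genes tested was -0.01. All 109 genes had non-overlapping libraries, which held for 970 genes in the higher direction (6.49%) and 1117 in the lower (7.47%) of those tested. An unadjusted p under 0.05 was found for 1589 genes. Without Bcl11a-CKO replicate 1, 49 genes were higher and 41 lower, and 28 of the 45 and 38 of the 64 kept their call. A model with the 3 E13.5 groups alone, which estimates the spread without the E15.5 libraries, left 16 genes, 10 higher and 6 lower. When each mutant library was left out in turn, 16 higher and 11 lower genes kept their call every time. The 16 were Scube2, Fignl2, Wscd2, Ephb1, Rgl3, Gamt, Metrn, Lhx5, Mgat1, Mtus2, Kcnh2, Parvb, Prtg, Naglu, Myo16 and Uncx, and the 11 were Bcl11b, Cnr1, Sv2b, Cacna1e, Slc17a7, Flrt2, Sphkap, Camk2b, Pcsk2, Znrf2 and Clmp. DESeq2 passed 231 genes, 76 higher and 155 lower, and limma-voom 87, 51 higher and 36 lower.

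**Figure D2:**
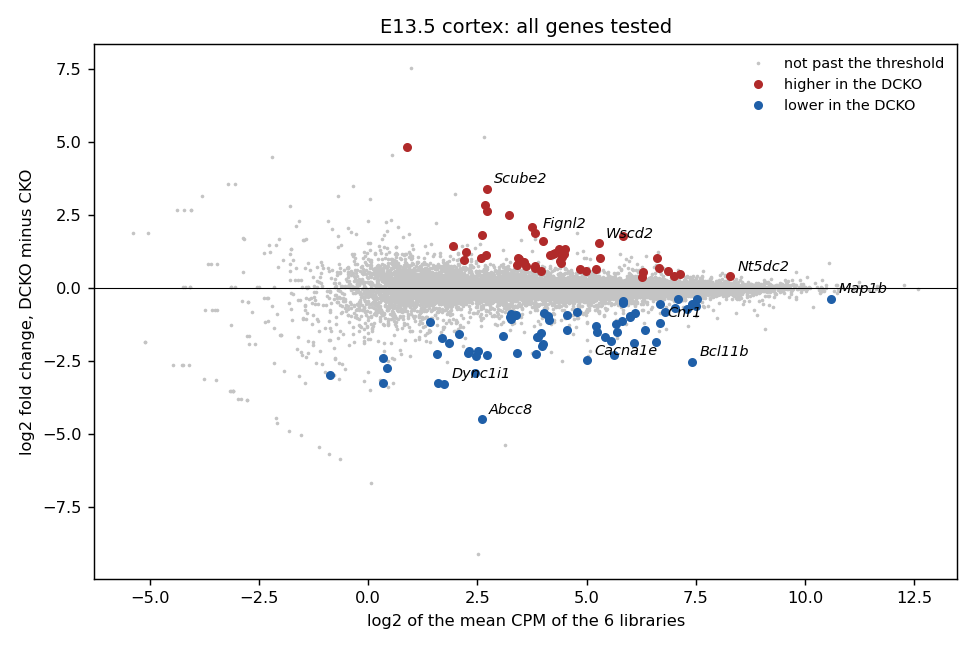
Log2 fold change of the double against the single mutant at E13.5 (y axis) against the log2 mean CPM of the 6 libraries (x axis) for the genes tested that had counts in them; red and blue points passed the test. The genes that passed lay on both sides of 0, with Scube2 at 3.40 and Abcc8 at -4.49, and included abundant genes with small differences such as Map1b (-0.36).

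Of the 109 genes, 7 passed under every one of 23 alternative analyses: Scube2, Fignl2, Wscd2, Ephb1 and Rgl3 were higher, and Bcl11b and Cnr1 were lower. Scube2, at chr7:109798676-109865679, encodes a secreted protein that helps release lipid-modified Sonic hedgehog from cells. Its CPM was 0, 0 and 0.19 in the control, 1.23, 1.36 and 0.73 in the Bcl11a-CKO, and 11.2, 11.3 and 13.7 in the double mutant. The 3 groups did not overlap, and the double mutant exceeded the single mutant by 3.40 ± 0.28 on the log2 scale (adjusted p = 0.000115). Without Bcl11a-CKO replicate 1 the value was 3.46.

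Fignl2, at chr15:101050194-101054399, encodes a fidgetin-like AAA ATPase, of a family that includes microtubule-severing enzymes. Its CPM was 1.36, 0.38 and 0.94 in the control, 6.66, 5.97 and 5.48 in the Bcl11a-CKO, and 21.4, 21.9 and 23.3 in the double mutant (1.87 ± 0.16; adjusted p = 0.000117). Wscd2, a WSC-domain protein at chr5:113490333-113589725, followed the same order. Its CPM was 5.07, 2.27 and 4.72 in the control, 21.7, 18.1 and 19.5 in the single mutant, and 58.9, 52.5 and 61.5 in the double mutant (1.54 ± 0.17; adjusted p = 0.000754). For Scube2, Fignl2 and Wscd2 every single-mutant library lay above every control library and below every double-mutant library. Rgl3, an effector of Ras-family GTPases at chr9:21971527-21989453, had 3.33, 2.04 and 3.11 CPM in the single mutant and 14.0, 14.7 and 18.6 in the double mutant (2.49 ± 0.30; adjusted p = 0.00212).

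Ephb1, a receptor for ephrin-B ligands that guides axons, had 12.1, 12.4 and 14.4 CPM in the Bcl11a-CKO and 30.4, 33.1 and 35.0 in the double mutant, and the control lay between them at 17.5, 19.6 and 18.9. The difference was 1.34 ± 0.14 (adjusted p = 0.000463). The gene lies at chr9:101922128-102354693 and shares exonic bases with an antisense gene, Gm26846. Cnr1, the CB1 cannabinoid receptor, is at chr4:33924593-33948831 and stepped the other way: 214, 247 and 187 CPM in the control, 141, 156 and 130 in the single mutant, and 67.0, 57.2 and 63.5 in the double mutant. The fold change between the mutants was -1.19 ± 0.11 (adjusted p = 0.000128), and it was -1.19 without Bcl11a-CKO replicate 1 as well.

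**Figure D3:**
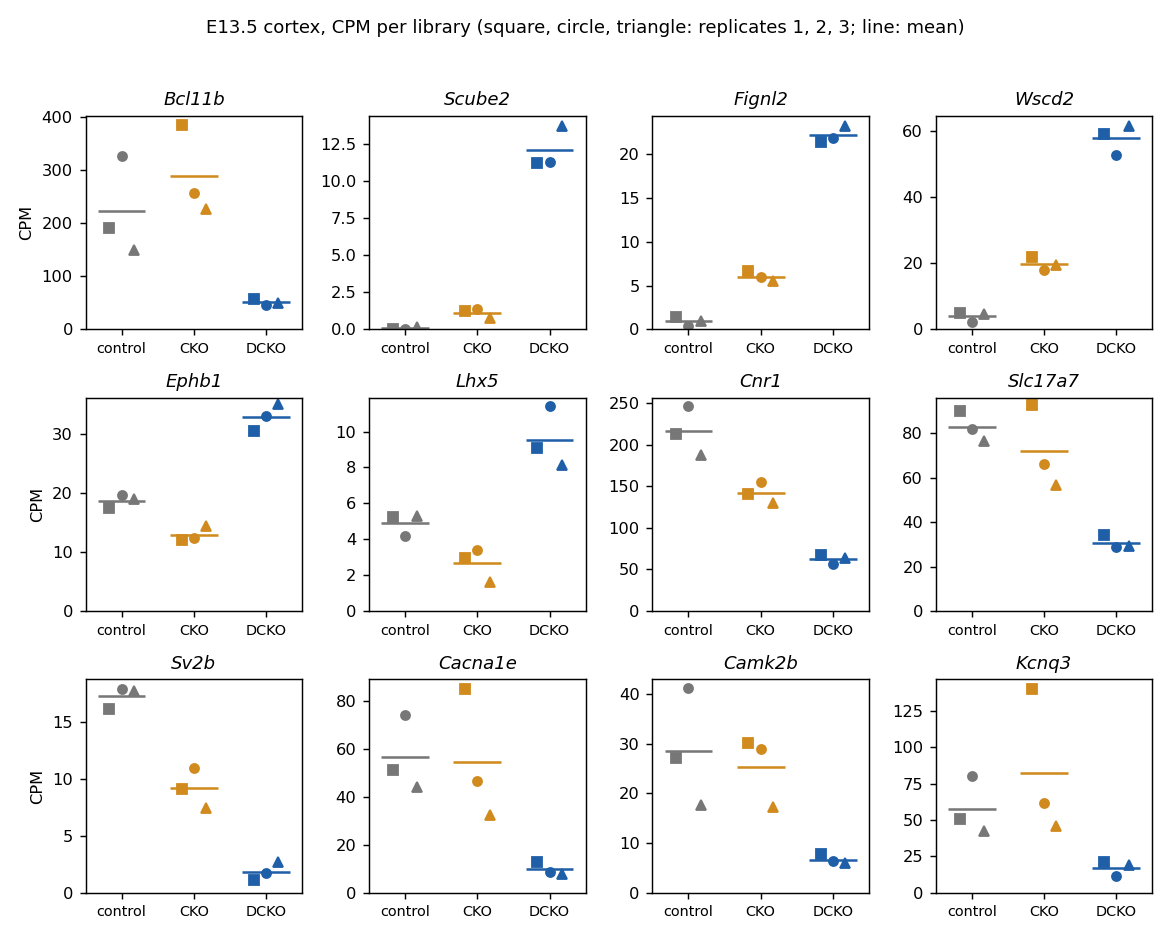
CPM of 12 genes in each E13.5 library (y axes start at 0); squares, circles and triangles are replicates 1, 2 and 3 and lines are means of the control, Bcl11a-CKO (CKO) and Bcl11a/b-DCKO (DCKO). Every DCKO library lies outside the range of the CKO libraries in all 12 panels, for example 11.2 to 13.7 CPM against 0.73 to 1.36 for Scube2.

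Transcription factors and developmental genes were among those higher in the double mutant. Uncx, a paired-type homeobox factor, had 2.63, 6.65 and 5.85 CPM in the Bcl11a-CKO and 21.9, 20.8 and 22.4 in the double mutant (2.08 ± 0.31; adjusted p = 0.0113), while the control had 2.92, 2.83 and 6.99. Lhx5, a LIM homeobox factor used as a marker of Cajal-Retzius neurons and the cortical hem, had 2.98, 3.39 and 1.64 CPM in the single mutant and 9.06, 11.4 and 8.12 in the double mutant (1.81 ± 0.25; adjusted p = 0.00439). It was the 1 of 9 tested Cajal-Retzius genes to pass. Reln, the defining product of these cells, did not pass and had a log2 fold change of -0.38 ± 0.13 (adjusted p = 0.253). These 2 factors were also the only 2 of 53 tested homeobox genes to pass. Zfpm1, a cofactor of GATA factors, was higher by 0.75.

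Lin28a, which blocks maturation of let-7 microRNAs, had 2 counts over the 3 Bcl11a-CKO libraries and 65 over the 3 double mutants. After allowance for library size this is a ratio of 33.5, with an exact interval of 8.91 to 283 for counting error. It was at 0 in the 3 controls. Prtg (protogenin), an immunoglobulin-family receptor of the early neural tube, had 0.53, 1.77 and 2.37 CPM in the single mutant and 11.6, 13.3 and 8.66 in the double mutant (2.83 ± 0.42; adjusted p = 0.00689). Fst, the activin-binding follistatin, was higher by 0.81, Metrn, a secreted neurotrophic factor, by 1.03 ± 0.14, and Nkd1, an inhibitor and target of Wnt signalling, by 0.67 ± 0.13.

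Several genes of the cytoskeleton, adhesion and metabolism were higher. Myh3, the embryonic myosin heavy chain of muscle, had 0.53, 2.31 and 2.56 CPM in the single mutant and 9.60, 13.6 and 11.2 in the double mutant (2.65 ± 0.47; adjusted p = 0.0194). Myo16, an unconventional myosin of neurons, was higher by 1.17 ± 0.18, and Mtus2, a microtubule-associated protein, by 1.18 ± 0.17. Of 75 tested myosin, dynein and kinesin genes, 2 passed higher, Myh3 and Myo16, and 1 lower, Dync1i1. Parvb, a parvin of integrin adhesions, was higher by 0.93, and Cdh22, a classical cadherin, by 1.06 ± 0.22. Cdh22 was the 1 of 83 tested cadherin and protocadherin genes to pass. Cygb, a globin of non-erythroid cells, was higher by 1.62 ± 0.27. Gamt, an enzyme of creatine synthesis, had 11.9, 11.7 and 10.2 CPM in the single mutant and 28.1, 21.2 and 24.9 in the double mutant (1.13 ± 0.14; adjusted p = 0.00212). Naglu, a lysosomal enzyme that degrades heparan sulfate, was higher by 1.00.

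Rprd1b and Mgat1 had another pattern, in which the single mutant was the group that stood apart. Rprd1b, a regulator of RNA polymerase II, had 99.3, 89.7 and 96.3 CPM in the control, 23.8, 27.4 and 26.1 in the Bcl11a-CKO, and 88.4, 85.2 and 90.9 in the double mutant. Mgat1, which starts the synthesis of complex N-glycans, had 26.3, 34.6 and 21.5 CPM in the control, 11.2, 11 and 12.6 in the single mutant, and 33.0, 24.3 and 31.4 in the double mutant. Rprd1b shares exonic bases with the antisense genes Tgm2 and 2010009K17Rik, and the strand setting of the counting is not given in the sources used here. At E15.5 Rprd1b had 52.9 and 58.9 CPM in the single mutant and 62.7, 16.4 and 18.2 in the double mutant, so its low value recurred in 2 double-mutant units there. The adjusted p of Rprd1b was 0.0372, and 0.105 without Bcl11a-CKO replicate 1. Its log2 fold change was 1.77, and 1.725 without that replicate. With the 3 E13.5 groups alone its adjusted p was 2.2e-05. In the model with all embryonic groups it kept its call in 0 of 6 fits that left out 1 E13.5 mutant library.

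The control level places each gene that passed. Of the 45 genes higher in the double mutant, the control mean was the lowest of the 3 groups for 35, lay between the mutants for 8 and was the highest for 2. Of the 64 lower genes, the control mean was the highest for 39, lay between the mutants for 24 and was the lowest for 1. The comparisons of the 2 mutants with the control share the control libraries, so these positions are a description. They were not counted over all genes tested.

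Several genes with known roles at synapses were lower in the double mutant. Of related families, 0 of 24 tested glutamate receptor, 0 of 16 GABA and glycine receptor and 0 of 16 synaptotagmin genes passed. With 0.729% of all genes tested passing, counts of 0 in families of this size do not show that a family was unchanged. Values were below 0 for 12 and above 0 for 12 glutamate receptor genes (median -0.04). For GABA and glycine receptor genes these numbers were 10 and 5 (-0.17), and for synaptotagmin genes 13 and 3 (-0.16). Family medians were not taken without Bcl11a-CKO replicate 1. Slc17a7, the vesicular glutamate transporter VGLUT1, had 92.8, 66.1 and 56.6 CPM in the Bcl11a-CKO and 34.2, 29.0 and 29.2 in the double mutant (-1.22 ± 0.16; adjusted p = 0.00309), against 90.2, 81.8 and 76.3 in the control. Sv2b, a synaptic vesicle glycoprotein, had 9.11, 11 and 7.49 CPM in the single mutant and 1.09, 1.73 and 2.71 in the double mutant (-2.32 ± 0.30; adjusted p = 0.00302). Its control libraries had 16.2, 17.9 and 17.8 CPM. Camk2b, a subunit of the synaptic kinase CaMKII, had 30.1, 28.9 and 17.2 CPM in the single mutant and 7.79, 6.35 and 5.95 in the double mutant (-1.93 ± 0.29; adjusted p = 0.00665). Its pseudokinase relative Camkv was lower by a log2 fold change of -0.95, the postsynaptic adhesion protein Nlgn1 by -0.87, the synaptic adhesion-like protein Lrfn5 by -1.66, and the neuronal calcium sensor Hpca by -2.16. Pcsk2, a protease that matures neuropeptides, was lower by -1.65, and Jph4, which couples the endoplasmic reticulum to the plasma membrane, by -1.42.

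Ion channels were found in both directions. Cacna1e, the R-type calcium channel, had 85.3, 46.6 and 32.5 CPM in the Bcl11a-CKO and 13, 8.81 and 7.94 in the double mutant (-2.47 ± 0.32; adjusted p = 0.00309). It was the 1 of 31 tested sodium and calcium channel genes to pass. Of the 31, 25 had values below 0 and 6 above (median -0.21). Of 63 tested potassium channel genes, 2 passed lower and 2 higher. Kcnq3, a subunit of the M-current, had 140, 61.4 and 46.2 CPM in the single mutant and 21.4, 11.4 and 18.8 in the double mutant (-2.28 ± 0.37; adjusted p = 0.012). The modifier subunit Kcnv1 had 4.20, 1.63 and 1.10 CPM in the single mutant and 0.18, 0.29 and 0.18 in the double mutant. Kcnh2, the ERG channel, had 13.8, 9.37 and 12.6 CPM in the single mutant and 28.8, 28.0 and 24.4 in the double mutant (1.19 ± 0.17; adjusted p = 0.00439), and Kcnc1, a fast delayed rectifier, was higher by 0.65 ± 0.14. Abcc8, the sulfonylurea receptor of ATP-sensitive potassium channels, had 22.2, 10.6 and 2.19 CPM in the single mutant and 0.91, 0.43 and 0.18 in the double mutant (-4.49 ± 0.96; adjusted p = 0.0485). Its single-mutant libraries spanned a wide range, and its adjusted p was 0.138 without Bcl11a-CKO replicate 1. Of the nicotinic acetylcholine receptor subunits that passed, Chrna7 was lower by a log2 fold change of -1.56 and Chrna4 was higher by 0.95.

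Genes of axons and of neuronal form were also divided between the directions. Among 19 tested members of the Slit, Robo, netrin, Unc5 and Flrt family, Unc5c, a netrin receptor, was higher by 1.02 ± 0.19, and Ntng2, a membrane-bound netrin, and Flrt2, a ligand of Unc5 receptors, were lower by log2 fold changes of -1.50 ± 0.25 and -0.96 ± 0.13. Ephb1 was the 1 of 20 tested Eph and ephrin genes to pass, and 0 of 30 tested semaphorin, plexin and neuropilin genes passed. Dync1i1, a neuronal intermediate chain of dynein, had 8.76, 6.93 and 2.37 CPM in the Bcl11a-CKO and 1.09, 0.29 and 0.54 in the double mutant (-3.27 ± 0.57; adjusted p = 0.0163). Shtn1, an axon-forming clutch protein, was lower by -2.27, Tiam2, a Rac activator, by -1.86, and Dab1, the intracellular adaptor of Reelin signalling, by -0.54 ± 0.09. Map1b, a microtubule protein of growing axons, had 1710, 1783 and 1763 CPM in the single mutant and 1310, 1428 and 1365 in the double mutant, a fold change of -0.36 ± 0.07 between groups that did not overlap. Tnr, tenascin-R, was the 1 of 11 tested contactin, tenascin and L1 genes to pass (-3.24 ± 0.60; adjusted p = 0.0228), with 10.2, 4.07 and 2.19 CPM in the single mutant and 0.91, 0.29 and 0.54 in the double mutant. Of the 11, 9 had values below 0 and 2 above (median -0.63).

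Of the signalling and transcription genes that were lower, Nr4a3, an immediate early nuclear receptor, had 16.8, 9.50 and 2.56 CPM in the Bcl11a-CKO and 1.27, 1.59 and 0.90 in the double mutant (-2.90 ± 0.59; adjusted p = 0.0372). It was the 1 of 8 tested immediate early genes to pass, and its adjusted p was 0.101 without Bcl11a-CKO replicate 1. Foxo6, a forkhead factor of the forebrain, was lower by a log2 fold change of -0.86 ± 0.18, with an adjusted p of 0.0423 and of 0.13 without that replicate. Plk2, a kinase induced by activity, was lower by -1.43, the Wnt modulator Dact1 by -1.49, the receptor tyrosine kinase Kit by -1.0, and March4, a ubiquitin ligase, by -2.15 ± 0.38. Gipr, the receptor of the gut hormone GIP, had 8.93, 3.26 and 4.93 CPM in the single mutant and 1.99, 1.44 and 1.08 in the double mutant, and the orphan receptor Gpr26 was lower by -1.97. The chemokine gene Cxcl14 rested on 19 counts over the 3 single-mutant libraries against 2 over the double mutants (ratio 9.21, exact interval 2.22 to 81.6 for counting error). Cnnm1 had 2.28, 2.58 and 2.19 CPM against 0.18, 0 and 0.90.

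For 53 of the 64 lower genes the highest of the 3 Bcl11a-CKO libraries was replicate 1, and for 49 of 64 the lowest was replicate 3. The order of libraries was not counted over all genes tested. Among the 45 higher genes, replicate 1 was the highest of its group for 17 and the lowest for 19. With the age score as a term of the model 86 genes were higher and 69 lower, and 36 of the 45 and 52 of the 64 kept their call. With a term for Xist, 32 higher and 38 lower genes kept theirs. Of the genes that passed and are named in the text, Abcc8, Nr4a3, Cnnm1, Ntsr1, Gipr, Tiam2, Chrna7, Dact1, Foxo6, Nlgn1, Cxcl14, Gucy1a3, Rprd1b, Cdh22, Fst, Chrna4, Dpysl4, Zfpm1 and Gm30238 did not pass without Bcl11a-CKO replicate 1. Without it the log2 fold change of Kcnq3 went from -2.28 to -1.66, and that of Tnr from -3.24 to -2.48. Cacna1e went from -2.47 to -2.0, Tiam2 from -1.86 to -1.16 and Plk2 from -1.43 to -1.12. Sv2b (-2.32 and -2.33) and Map1b (-0.36 and -0.37) hardly changed.

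The cell type and pathway lists show how far the named genes stand for wider groups. In bulk tissue, fewer cells of a type and less RNA per cell cannot be told apart. As a scale for the lists below, 1589 of all 14947 genes tested had an unadjusted p under 0.05 in edgeR's test. DESeq2 passed 231 genes in all. Of 10 layer 6 corticothalamic genes, 1 passed: Ntsr1, the neurotensin receptor used to mark these cells. It had 2.80, 2.17 and 1.46 CPM in the Bcl11a-CKO, 0.54, 0.29 and 0.36 in the double mutant and 5.65, 5.10 and 2.83 in the control (-2.41 ± 0.44; adjusted p = 0.021, and 0.0675 without Bcl11a-CKO replicate 1). The median of the list was -0.72, against -0.01 for all genes tested, and -0.32 without that replicate, with 8 of 10 values below 0. Zfpm2, a FOG family cofactor expressed in these neurons, did not pass (-0.79 ± 0.19; adjusted p = 0.0843). Neither did Hs3st4, a heparan sulfate sulfotransferase named after its values were seen, which had 3.85, 1.90 and 0.55 CPM in the single mutant and no count in the double mutants. Of the 10 genes 7 had an unadjusted p under 0.05, DESeq2 passed 3 (Hs3st4, Ntsr1 and Zfpm2) and limma-voom 0. Tbr1, the transcription factor that defines layer 6 neurons, had a log2 fold change of 0.10 ± 0.13. At E15.5, 9 of these 10 genes were lower in the double mutant and the list's median was -1.76.

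Of 12 layer 5 subcerebral genes none passed in edgeR's test, with a median of -0.29 (-0.25 without Bcl11a-CKO replicate 1). An unadjusted p under 0.05 was found for 6, and DESeq2 passed 1, Cdh13. Fezf2, the transcription factor that specifies these neurons, had 133, 131 and 104 CPM in the single mutant and 92.8, 112 and 88.2 in the double mutant (-0.33 ± 0.10; adjusted p = 0.228; unadjusted p = 0.00687). Cdh13, an adhesion molecule of the same neurons, had a value of -1.15 ± 0.28 (adjusted p = 0.101). Of 14 upper-layer genes none passed in edgeR's test, 8 had an unadjusted p under 0.05, and DESeq2 passed 3, among them Plxnd1 and Pou3f1. The upper-layer median was -0.09 with all libraries and 0.12 without Bcl11a-CKO replicate 1.

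Several lists moved with the library that stood apart, among them the pan-neuronal and cell cycle lists. The interneuron median went from -0.17 to 0.30 without that library, and the median of immediate early genes from -0.03 to 0.12. Of 21 pan-neuronal genes, 19 had values below 0 (median -0.29), and Slc17a7 alone passed. Without Bcl11a-CKO replicate 1, 11 of the 21 were below 0, the median was -0.06, and Slc17a7 still passed (adjusted p = 0.00325). Neurod6, a bHLH factor of pyramidal neurons, did not pass (-0.76 ± 0.17; adjusted p = 0.0598). Of 27 cell cycle genes, 24 had values above 0 (median 0.10), 0 passed in edgeR or DESeq2 and 0 had an unadjusted p under 0.05. Without that replicate 20 of the 27 were below 0 (median -0.07). The direction of the cell cycle list thus depended on 1 library. Intermediate progenitor genes had a median of 0.10, or 0.12 without the replicate, and of 12 none passed in edgeR or DESeq2 (1 with an unadjusted p under 0.05). Eomes, their defining factor, had 719, 706 and 694 CPM in the single mutant and 814, 766 and 865 in the double mutant (0.21 ± 0.11; adjusted p = 0.562). Of 17 radial glia genes none passed in edgeR's test, 4 had an unadjusted p under 0.05 and DESeq2 passed Notch1, and their median was 0.06, or -0.07 without the replicate.

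**Figure D4:**
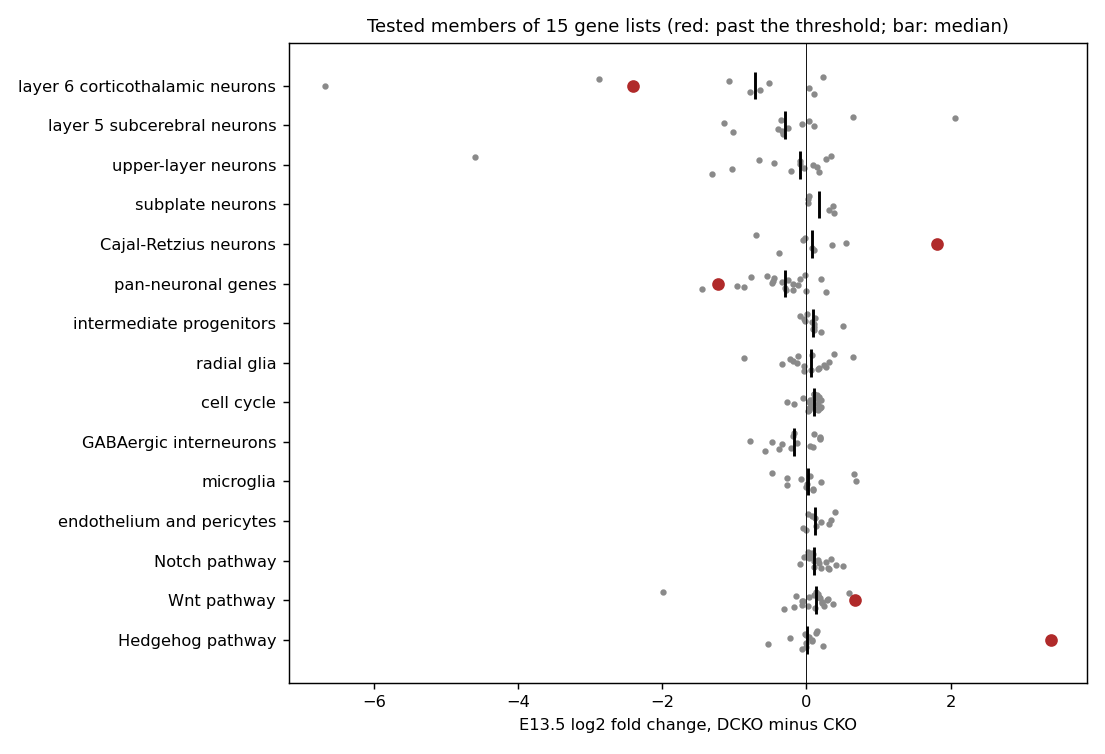
E13.5 log2 fold change of the double against the single mutant (x axis) for each tested member of 15 gene lists (grey points, with red for those that passed; black bars are list medians). The layer 6 list has the lowest median (-0.72), and 5 genes passed in all: Ntsr1, Lhx5, Slc17a7, Nkd1 and Scube2.

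Pathway lists gave single genes. In the Hedgehog pathway 1 of 14 tested genes passed, Scube2, and the median was 0.01. Smo, the signal transducer, had a value of 0.23 ± 0.10 (adjusted p = 0.444), and Shh was at 0 counts in these 6 libraries. In the Wnt pathway 1 of 23 passed, Nkd1, and Rspo3, an R-spondin ligand, had a value of -2.0 ± 0.45 (adjusted p = 0.0668). In the Notch pathway none of 20 passed in edgeR's test, with 18 values above 0 and a median of 0.10, 5 genes had an unadjusted p under 0.05, and DESeq2 passed 1, Notch1. It had 474, 577 and 555 CPM in the single mutant and 656, 667 and 679 in the double mutant (0.32 ± 0.07; adjusted p = 0.0802). Among partners of the Bcl11 proteins, none of 13 NuRD and none of 20 BAF genes passed in edgeR's test, with 4 at an unadjusted p under 0.05 in each list. DESeq2 passed 1, Chd3. The NuRD helicase Chd3 had 873, 645 and 549 CPM in the single mutant and 493, 432 and 464 in the double mutant (-0.57 ± 0.13; adjusted p = 0.0744).

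Markers of cells that do not carry the deletion were examined for differences in dissection or composition. Of 67 tested interneuron, microglia, endothelial, meningeal, erythroid, striatal or thalamic genes none passed in edgeR's test, 10 had an unadjusted p under 0.05, and DESeq2 passed 1, the dopamine receptor Drd1. Over all genes tested, 1589 of 14947 had an unadjusted p under 0.05. Summed levels ran from 204 to 373 CPM in the Bcl11a-CKO and 270.1 to 283 in the double mutant for interneurons, from 65.9 to 88.1 and 73.4 to 85.2 for microglia, and from 237 to 344 and 299 to 356 for endothelium and pericytes. Meningeal sums were 389 to 652 and 468 to 669 CPM, and erythroid sums 1062 to 1789 and 1229 to 2591. These ranges overlapped. Most genes of 3 of these lists had values above 0 without passing: 8 of 9 erythroid (median 0.46), 7 of 8 meningeal (0.31) and 9 of 10 endothelial genes (0.12). Without Bcl11a-CKO replicate 1 this held for 9 of 9 (0.51), 7 of 8 (0.22) and 10 of 10 (0.23). Of 12 microglia genes 8 were above 0 with and without that replicate (medians 0.02 and 0.15). The interneuron median was -0.17, with 6 of 15 values above 0, and 0.30 with 11 of 15 without the replicate. Thalamic sums did not overlap, at 212 to 237 and 255 to 304 CPM, with 4 genes tested. Sums for the hippocampus and hem were 20.1 to 179 and 111 to 134 CPM. Ttr and Folr1 of the choroid plexus, Sox10 of oligodendrocytes, Wnt3a of the hem and Gsx2 of the striatal progenitors were at 0 counts in these libraries. The part of tissue composition in the gene differences was not tested.

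At E15.5 the same genotypes differed in 402 higher (2.69% of genes tested) and 407 lower genes (2.72%). Those libraries come from other embryos, so they are a separate measurement of the E13.5 genes, in a shared model. Of the 45 genes higher at E13.5, 20 were also higher at E15.5, which is 44.4% of the 45 and 4.98% of the 402. Of the 64 lower genes, 30 were also lower, 46.9% of the 64 and 7.37% of the 407. In each direction 2 genes passed with the opposite sign at E15.5. The sign was the same at both ages for 37 of 45 and 48 of 64 genes. The median log2 fold change went from 1.04 at E13.5 to 0.62 at E15.5 in the higher genes and from -1.51 to -0.81 in the lower genes. The E13.5 medians belong to genes chosen for their size at that age. Without Bcl11a-CKO replicate 1, 28 of 49 higher and 21 of 41 lower genes passed in the same direction at E15.5.

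**Figure D5:**
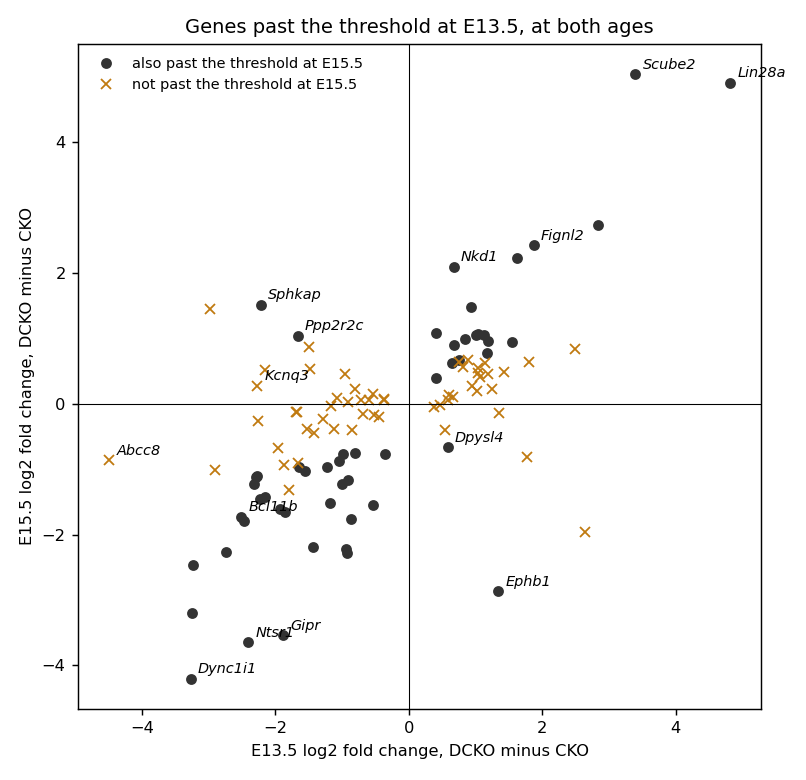
Log2 fold change of the double against the single mutant at E13.5 (x axis) and E15.5 (y axis) for 108 genes that passed at E13.5 (Uncx, with 0 counts in the E15.5 Bcl11a-CKO, is left out); filled circles also passed at E15.5 and crosses did not. Most points lie in the lower left and upper right, and Ephb1 (1.34 and -2.86) and Sphkap (-2.22 and 1.52) lie in the other quadrants.

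Scube2 had 0.47 and 0.21 CPM in the E15.5 Bcl11a-CKO and 10.2, 11.4 and 9.82 in the double mutant. Fignl2 had 4.51 and 3.75 CPM against 22.1, 22.1 and 21.2. Cnr1 had 281 and 275 CPM against 86.3, 99.7 and 105. Bcl11b had 349 and 374 CPM against 111, 117 and 99.96. These 4 genes did not pass a test of the difference between the ages. Uncx had 0 counts in the E15.5 Bcl11a-CKO and 228 in the double mutants, which is at least 60.4-fold higher against a floor of 3 counts over the group (the exact 95% lower limit for counting error alone was 48.7). Dync1i1, Gipr and Ntsr1 were at higher levels in the E15.5 single mutant and differed in the same direction. Dync1i1 had 137 and 148 CPM in the single mutant and 7.44, 6.37 and 9.46 in the double mutant. Gipr had 85.5 and 101 CPM against 5.95, 8.89 and 8.93, and Ntsr1 had 34.2 and 27.3 against 2.76, 2.22 and 2.32.

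A difference between ages in the effect of the double mutation was tested directly, and 216 genes passed (1.45%), 8 of them among the 45 higher and 13 among the 64 lower genes of E13.5. The 45 and 64 genes were chosen by the E13.5 difference, which enters this test, so the 8 and 13 are affected by that choice. Ephb1 had the smallest p of this test and passed in opposite directions at the 2 ages. It was 12.1 to 14.4 CPM in the single mutant at E13.5 and 86.4 and 87.3 at E15.5, while the double mutant went from 30.4 to 35.0 CPM at E13.5 to 13.4, 13.8 and 8.57 at E15.5. The log2 fold change went from 1.34 to -2.86, a difference of -4.21 ± 0.21 (adjusted p = 1.08e-07). Sphkap, an anchoring protein for protein kinase A, went the other way, with 26.6, 12.8 and 12.8 CPM against 4.35, 3.03 and 3.79 at E13.5 and 11.2 and 11.9 against 28.5, 36.7 and 34.1 at E15.5. Its difference between ages was 3.74 ± 0.44 (adjusted p = 0.000383). Ppp2r2c, a regulatory subunit of protein phosphatase 2A, likewise passed lower at E13.5 (-1.67) and higher at E15.5 (1.04). Dpysl4, a collapsin response mediator, passed higher at E13.5 (0.58) and lower at E15.5 (-0.66). Nkd1 was higher at both ages and by more at E15.5 (2.10), where it had 39.4 and 45.6 CPM against 190, 191 and 169.

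The genes that passed lay on many chromosomes. The share was highest on chromosome 12, which carries Bcl11b, at 8 of 522 tested genes with Bcl11b included. On chromosome 9 it was 10 of 857 and on chromosome 7 12 of 1157, against 0.729% of all genes tested. The part of chromosomal position was not tested. Within 20 Mb of Bcl11b 2 of 153 tested genes passed (Gm30238 and Flrt2), and within 20 Mb of Bcl11a 2 of 175 (Wwc1 and Camk2b), Bcl11b and Bcl11a themselves not counted. Of the 109 genes, 34 share exonic bases with another annotated gene in GENCODE M21, among them Ephb1, Rprd1b, Lhx5, Lin28a, Metrn, Sv2b, Hpca, Tnr, Tiam2 and Unc5c. Their values may hold reads of the partner. Such overlaps were not counted over all genes tested. Clmp (-1.68) and Gm16096 (-1.70) overlap each other on opposite strands and both passed, and reads of one cannot be told from reads of the other.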

How the data were processed

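Total RNA of dissected mouse cortex was sequenced. The authors deposited the embryonic data as raw read counts for 34745 genes, and each of the 18 libraries sums to between 4313142 and 7220708. Per the submitters' processing notes, HISAT2 2.0.4, StringTie 1.3.0, edgeR and build mm10 were used; what each did, strandedness and filters are not stated there. P0 tables were not used here.

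Groups follow the titles. E15.5 libraries of 1 group whose titles share a number and carry R and L were taken as sides of 1 animal, which the labels do not state, and summed, which left 16 units. No source used here says which library came from which embryo, so p-values reflect the spread among these libraries, part of which may be technical. No libraries were identical (chi-square per gene 5.27 to 15.1 within the mutant groups).

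One edgeR 4.0.16 quasi-likelihood model (R 4.3.3) held all 6 embryonic groups, after TMM scaling and filterByExpr, which kept 14947 genes. P-values were adjusted by Benjamini-Hochberg over all of them, with a threshold of 0.05, and every adjusted p given comes from this tool unless another is named. The common biological coefficient of variation was 0.139. The fit was tested on simulated data. Alternatives included DESeq2 1.42.0 and limma-voom (limma 3.58.1).

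Named genes are the deleted genes, the 20 largest fold changes per direction among genes that passed without overlap of libraries and reached 5 CPM on average in 1 group, list and family members that passed, the 2 genes of smallest p in each list, and the 10 largest differences between ages. Other genes that passed are named by direction and size, and 2 genes that the rule names are not reported here. The members, lists and tests were chosen with earlier results of these data known. Spreadsheet dates replaced 27 symbols, and March4 was restored by its gene ID. GENCODE M21 held 34267 of the file's gene IDs and gave the exon overlaps. Exact intervals are at 95% and cover counting error only.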

Additional observations from a re-analysis of the deposited data

Results flagged for a closer look

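These results passed the test of a difference between E13.5 and E15.5 in the effect of the double against the single mutation. Each value is the E15.5 log2 fold change minus the E13.5 log2 fold change, and no explanation for them was tested. Genes that passed at E13.5 were chosen by a value that is subtracted here, which favours differences of the opposite sign.

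Among genes higher in the double mutant at E13.5, the difference was negative for Ephb1 (-4.21), Rprd1b (-2.59), Mgat1 (-1.49), Dpysl4 (-1.25) and Sel1l3 (-0.94). It was positive for Nt5dc2 (0.67), Nkd1 (1.43) and Uncx (7.25). The value of Uncx comes from a fit with 0 counts in the E15.5 Bcl11a-CKO and is no measure of its fold.

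Among genes lower at E13.5, the difference was negative for Gucy1a3 (-1.35), a subunit of soluble guanylate cyclase, Camkv (-1.28) and Dab1 (-1.0), which fell further at E15.5. It was positive for Pgap1 (0.45), Wwc1 (1.04), Flrt2 (1.42), Dact1 (2.01), Ntng2 (2.37), Kcnq3 (2.55), Hpca (2.67), Ppp2r2c (2.70), Sphkap (3.74) and Cxcl14 (4.43). Of these 10 genes, Ppp2r2c and Sphkap passed in the opposite direction at E15.5 and the other 8 did not pass there.

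Genes that did not pass at E13.5 also differed between the ages. The layer 5 factor Fezf2 had a difference of -1.04, with E15.5 levels of 248 and 248 CPM in the single mutant and 90.0, 97.9 and 99.8 in the double mutant. The layer 6 cofactor Zfpm2 had a difference of -1.93. Notch1 had one of -0.49 and Plxnd1, a semaphorin receptor, one of 1.19. Cntnap5b, a contactin-associated protein, had a difference of -4.25, with 9.02 and 12.4 CPM in the E15.5 single mutant and 0.43, 1.33 and 0.54 in the double mutant. Differences were positive for Slc35f4 (3.94), Pdlim1 (4.15), Map3k5 (4.25), Adcy8 (5.97) and Rasal1 (7.05). Rasal1, a Ras GTPase-activating protein, had 0.24 and 0.43 CPM in the E15.5 single mutant and 13.4, 12.1 and 10.9 in the double mutant. At E13.5 Rasal1 rested on 10 counts in the single and 2 in the double mutants (ratio 4.85, exact interval 1.03 to 45.5). Pdlim1 at E15.5 rested on 1 count in the single and 31 in the double mutants (ratio 24.6, exact interval 4.1 to 1000). The fitted differences of Rasal1 and Pdlim1 are therefore no close measure of size. Map3k5, the stress kinase ASK1, had 1.66 and 0.75 CPM against 16.0, 15.1 and 17.9.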

How the results depend on the processing

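No paired analysis was possible because the E13.5 titles give no replicate number that the genotypes share. Each E13.5 group has 1 library whose title carries a letter, and with this title form as a term of the model 134 genes differed (52 higher, 82 lower). The count of 109 genes that differ at E13.5 (45 higher, 64 lower) rests on the spread estimated over all embryonic groups: with the 3 E13.5 groups alone it was 16 (10 higher, 6 lower), as with the 6 mutant libraries alone (16, of which 10 higher and 6 lower). DESeq2 called 231 (76 and 155), and limma-voom 87 (51 and 36), so limma-voom had more higher than lower genes. Without a filter on low counts 97 genes were lower. Without the 3 libraries whose titles carry a letter, which are replicate 1 of each E13.5 group, 49 remained (27 and 22). Leaving out 1 library at a time gave 37 to 209 genes, 18 to 49 higher and 16 to 167 lower. The fewest came without Bcl11a/b-DCKO replicate 2 (37) and the most without Bcl11a-CKO replicate 3 (209); it was 41 without Bcl11a/b-DCKO replicate 1, 52 without replicate 3 and 63 without Bcl11a-CKO replicate 2. In all 6 of these mutant leave-outs 16 higher and 11 lower genes kept their call, and none of the 109 changed sign. Among terms added after seeing the data, Xist left 71 (39 lower), and the age score gave 86 higher genes, 1272 differences at E15.5 and 448 between ages. The 809 genes at E15.5 became 353 to 635 with 1 library left out and 1132 with each library taken by itself. The 216 age differences became 99 to 275, 339 with DESeq2 and 336 with each E15.5 library taken by itself. Of the alternatives for single genes, 2698 planned and 260 added ones kept direction and call, 687 and 60 lost the call, 36 and 6 gained it, and 5 and 2 changed sign, none in a gene that passed. Bcl11a (-0.09) became 0.082 without the letter-titled libraries and 0.031 with the age score, and ran from -0.22 to 0.041 with 1 library left out. With 1 library left out Prox1 (-0.17) ran from -0.34 to 0.28, Map3k5 (-0.345) from -0.63 to 0.0027 and Aqp1 (0.07) from -0.048 to 0.12. Pdlim1 (0.11) became -0.026 with the age score. Other scalings moved the E13.5 count to 105 to 107.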
